A study of Homo sapiens with 3 samples.

Results

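The genes described here serve the amino acid response and glutamine metabolism: the sensor kinase and transcription factors that react to amino acid shortage, the enzymes that make amino acids and use glutamine, the transporters that carry amino acids across the plasma membrane, and aminoacyl-tRNA synthetases. The set lists 37 genes by name, and a gene counted as present when the platform annotation gave its symbol to a probe. This found 35 of the 37 genes on 52 probes, of 20043 named genes and 47315 probes on the array. GLS2 and GPT2 had no named probe, so their expression is not analysed here.

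Amino acid shortage is sensed by the kinase GCN2, the product of EIF2AK4, which binds uncharged tRNA and phosphorylates the translation initiation factor eIF2. General translation then slows while translation of ATF4 mRNA increases, and the ATF4 protein activates genes of amino acid synthesis, uptake and tRNA charging through C/EBP-ATF response elements. ATF4 is thus controlled largely at translation, so its mRNA level does not report its activity. Glutamine supplies nitrogen for nucleotides and amino acids and, through glutamate, carbon for the citric acid cycle, and many breast cancer lines depend on taking it up. Glucocorticoids are known to induce glutamine synthetase, the product of GLUL, in muscle and other tissues.

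The cells were HCC1937, an established line from a human breast tumour, labelled basal, and all were kept in DMEM containing 3 mM glucose and 0.5 mM glutamine. There were 3 groups: untreated cells, cells given 200 nM dexamethasone (a synthetic glucocorticoid) for 16 h, and cells given 200 nM dexamethasone with 1 µM retinoic acid for 16 h. Each group was 1 Illumina bead array of total RNA, so the differences below have no replicate check, and none carries a test or a p-value. No label names a withdrawal of amino acids, and there was no retinoic acid group without dexamethasone. Whether the 0.5 mM glutamine left the cells of any group short of it was not tested.

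The arrays carried 16635 to 17091 probes with a detection p-value under 0.01, called detected below. The median unnormalized intensity was 132 on the untreated array, 149 on the dexamethasone array and 159 on the combination array, so an unnormalized value can be higher on a treated array while the normalized value is lower. Slide 1 carried the untreated and the combination array, and slide 2 held the dexamethasone array alone. As a check on the labels, the glucocorticoid targets SGK1 and FKBP5 were 43.0-fold and 9.92-fold higher on the dexamethasone array, and the retinoic acid target CYP26A1 was detected on the combination array alone. Of 7 genes chosen for this check, 4 of 5 measured were at least 2-fold higher after dexamethasone than untreated. With the combination 6 of 6 were. Of all measured genes, 5.73% and 5.84% were higher. Of 6 basal markers with a probe, EGFR, CDH3, VIM and LAMB3 were detected on all 3 arrays, KRT5 on the dexamethasone array alone and KRT14 on none. LAMB3 was 2.90-fold higher after dexamethasone and 2.62-fold higher with the combination than untreated. KRT5 was also at least 2-fold higher after dexamethasone. CDH3 was lower with the combination than untreated (log2 difference -1.73). KRT5 and CDH3 were both at least 2-fold lower with the combination than after dexamethasone. Without background correction and in the deposited normalized values, the LAMB3 call with the combination was lost, and 1 of the latter 2 calls. Of the basal markers measured, 2 of 5 were higher after dexamethasone and 0 lower, where 10.3% of all measured genes passed 2-fold. With the combination 1 of 4 was higher than untreated and 1 lower, against 11.3%. Between the treated arrays 0 of 5 were higher and 2 lower, against 6.57%. These shares lie above those of all genes but rest on few markers. KRT14 was measured in no comparison, and KRT5 only in those with the dexamethasone array. Against the basal label, every array had detectable signal for the luminal genes TFF1, FOXA1, ESR1 and GATA3. Of 9 luminal markers measured, 5 were at least 2-fold lower after dexamethasone than untreated (ESR1, GATA3, FOXA1, TFF1 and AGR2) and 0 higher. With the combination 4 of 9 were lower (ESR1, GATA3, TFF1 and AGR2) and 0 higher. These are 55.6% and 44.4%, against 10.3% and 11.3% of all measured genes. The count of 4 was 2 under either 75th percentile scaling, without background correction and in the deposited normalized values. Between the treated arrays 1 of 9 luminal markers was higher with the combination (XBP1) and 0 lower, 11.1% against 6.57% of all genes. The XBP1 call was lost with scaling to probes detected on all arrays.

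The short sequences below are shown because they hold the core letters of the C/EBP-ATF response element, TGATGNAA, searched on both strands of RefSeq promoter windows of 300 bases (250 before to 50 after a transcription start, GRCh38.p14). Each is written 5′ to 3′ on the gene's strand, with the core in capitals. A core on the opposite strand is written as its reverse complement.
AARS1, chr16:70289676-70289703, minus strand: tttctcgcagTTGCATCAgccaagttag
ASNS, chr7:97872459-97872486, minus strand: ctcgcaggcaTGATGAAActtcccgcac
CHAC1, chr15:40953252-40953279, plus strand: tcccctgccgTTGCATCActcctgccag
GARS1, chr7:30594835-30594862, plus strand: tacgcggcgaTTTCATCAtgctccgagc
GOT1, chr10:99430805-99430832, minus strand: attgcattggTTGCATCAttctcggcag
SLC1A4, chr2:64989382-64989409, plus strand: cggctcccgtTTGCATCAtctccagccg
SLC1A5, chr19:46784894-46784921, minus strand: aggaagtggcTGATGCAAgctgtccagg
SLC38A1, chr12:46266503-46266530, minus strand: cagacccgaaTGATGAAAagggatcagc
SLC3A2, chr11:62881726-62881748, plus strand: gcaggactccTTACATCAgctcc
SLC7A1, chr13:29595664-29595691, minus strand: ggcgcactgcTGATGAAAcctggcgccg

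Of the 31 listed genes with a promoter window, these 10 (32.3%) held the core, against 539 of 15032 genes named on the array (3.59%). The 31 include GLS2, which has no named probe, whereas the 15032 all have one. Many of the listed genes are known ATF4 targets, so this share describes how the list was made and is no result of the treatments. The core began 68 bases before the start of ASNS, 209 bases before that of CHAC1 and 187 bases before that of AARS1. AARS1, CHAC1, GOT1 and SLC1A4 shared the letters TTGCATCA, and SLC1A5 held their reverse complement, TGATGCAA. GARS1 held TTTCATCA, the reverse complement of the TGATGAAA of ASNS, SLC38A1 and SLC7A1. The cores of SLC3A2 and SLC7A1 lay just after the start. Windows that lack the core say only that these letters were not in those 300 bases. The full palindrome of the glucocorticoid response element, searched on both strands, occurred in 1 of 35116 windows and in no window of a listed gene, which says nothing of where the receptor binds.

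The whole window of ASNS, the classical gene of the amino acid response, shows the core in its setting. It covers chr7:97872359-97872658 on the minus strand.
ASNS: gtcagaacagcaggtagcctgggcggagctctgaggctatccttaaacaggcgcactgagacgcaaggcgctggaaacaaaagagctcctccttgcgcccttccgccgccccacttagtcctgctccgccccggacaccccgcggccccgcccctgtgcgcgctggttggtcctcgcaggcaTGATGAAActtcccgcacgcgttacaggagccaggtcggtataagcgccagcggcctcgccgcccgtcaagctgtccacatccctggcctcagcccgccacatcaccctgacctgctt
The window of DDIT3, the listed gene with the largest difference below, is given beside it and holds no core in capitals. It covers chr12:57520465-57520764 on the minus strand.
DDIT3: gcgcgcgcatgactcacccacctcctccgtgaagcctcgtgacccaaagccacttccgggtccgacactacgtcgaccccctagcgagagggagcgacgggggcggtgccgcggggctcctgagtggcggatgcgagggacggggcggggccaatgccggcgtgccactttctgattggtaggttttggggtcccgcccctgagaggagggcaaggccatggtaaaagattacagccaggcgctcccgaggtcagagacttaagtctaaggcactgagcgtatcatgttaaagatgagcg

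Most of the set was expressed in these cells. The brightest probe of 30 of the 35 genes was detected on all 3 arrays (85.7%, against 46.2% of all named genes). CHAC1, SESN2 and SLC7A11 were detected on 1 or 2 arrays. SLC1A4 and SLC43A1, a pair of neutral amino acid transporters, were undetected on all 3, with intensities between 129.6 and 182. Each gene is represented below by its brightest probe, and levels are compared only between arrays, never between genes.

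**Figure D1:**
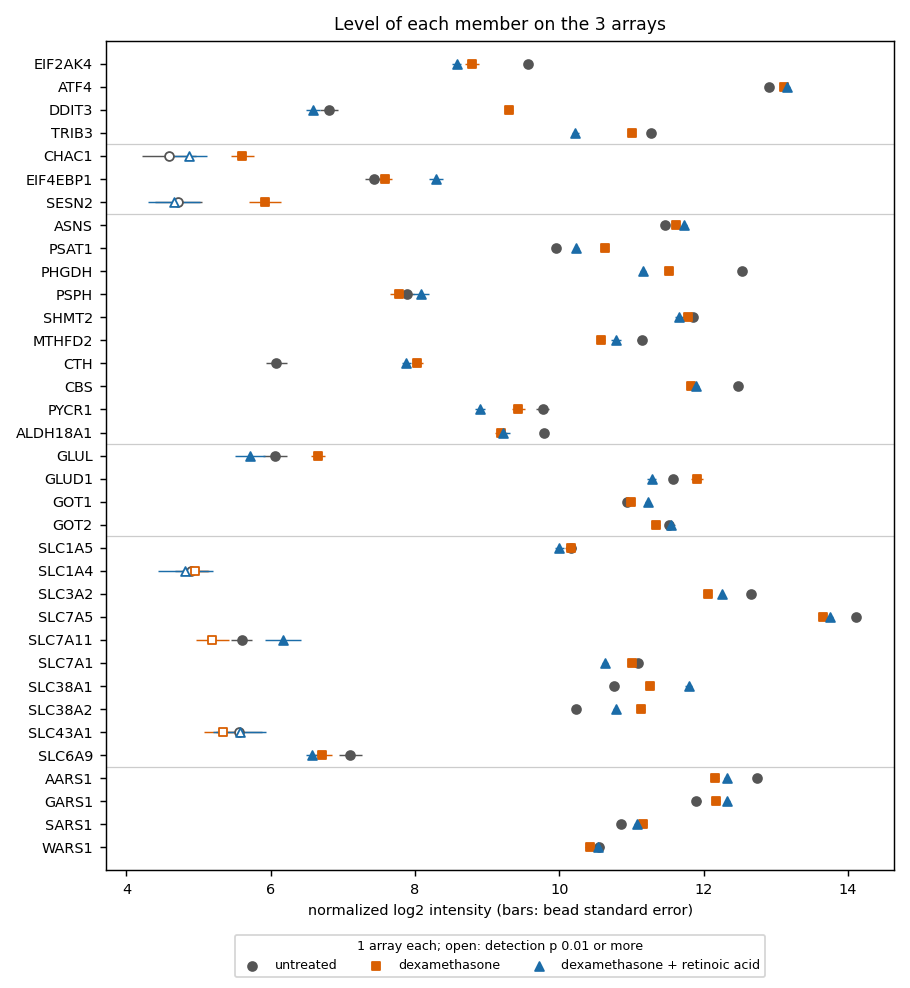
Normalized log2 intensity of the brightest probe of each of the 35 genes on the untreated, dexamethasone and combination arrays (1 array each), with the bead standard error as bars and open symbols where the probe was not detected. DDIT3 stands alone to the right on the dexamethasone array, the untreated array gives the lowest point of CTH and the highest of PHGDH, and the 3 points of most other genes lie closer together.

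Higher and lower are used below as calls at a log2 difference of 1 or more in size (2-fold) between normalized values. The standard error (SE) beside a log2 difference is that over beads within the arrays. "At least" stands where a single array of the pair detected the probe, and the other side then took whichever was higher, its own value or the smallest value detected on that array. Between dexamethasone and untreated, 2 of 33 measured genes of the set were higher (DDIT3 and CTH) and 1 was lower (PHGDH). That is 9.1% of them, against 10.3% of all 10852 measured genes (5.73% higher and 4.57% lower). Their median log2 difference was -0.05, and that of all genes was 0.00. Between the combination and untreated, 2 of 31 were higher (CTH and SLC38A1) and 2 lower (PHGDH and TRIB3), 12.9% against 11.3% of all 10705 genes (5.84% higher and 5.43% lower), with a median of -0.19 against -0.01. Between the combination and dexamethasone, 0 of 33 were higher and 1 was lower (DDIT3), 3.0% against 6.57% of all 10734 genes (2.99% higher and 3.58% lower), with a median of 0.00 against -0.01. The share of the set past 2-fold was thus near that of all genes in the comparisons with untreated and rested on 1 gene in the remaining one, where 4 of 10 other processing choices gave 2 genes. In all, 5 genes of the set passed 2-fold in some comparison, and 26 of the 31 genes measured in both comparisons with the shared untreated array lay within 2-fold in both.

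**Figure D2:**
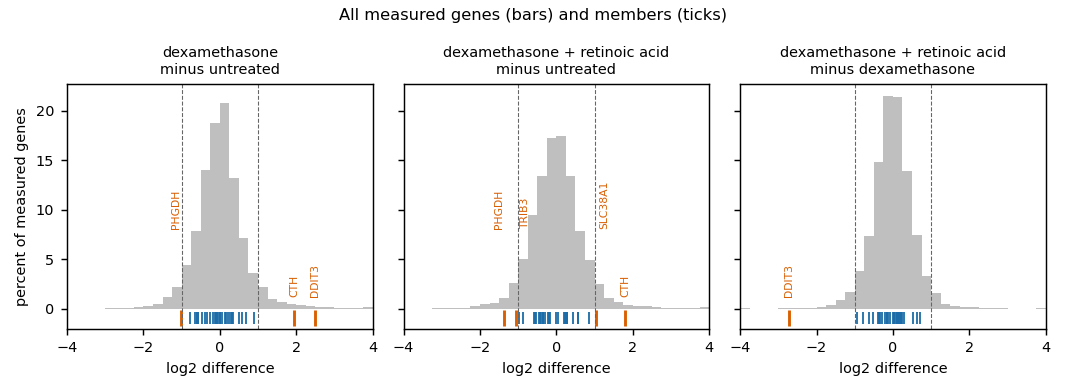
Distribution of log2 differences over all measured genes (grey bars, percent of genes per bin of 0.25, with differences beyond the axis counted in the end bins) in the 3 comparisons, and the genes of the set as ticks, orange and named where past the 2-fold lines. The ticks lie mostly within the central bars, with DDIT3, CTH, PHGDH, TRIB3 and SLC38A1 outside the lines.

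Over the 4 sensor and transcription factor genes the median log2 differences were -0.03, -0.60 and -0.50 in the 3 comparisons in the order above, with 1 gene past 2-fold in each. DDIT3 carried the largest difference of the set. DDIT3 encodes CHOP, a transcription factor induced by ATF4 in prolonged stress and linked to apoptosis. Its intensity was 189 on the untreated array, 743 on the dexamethasone array and 247 on the combination array. The dexamethasone array was thus high and the other arrays were close to each other. DDIT3 was 5.66-fold higher after dexamethasone than untreated (log2 difference 2.50, bead SE 0.13) and 6.60-fold lower with the combination than after dexamethasone (-2.72, bead SE 0.12). The combination differed from untreated by -0.22 (bead SE 0.16). The high value comes from 1 probe on the 1 array of slide 2, so slide and treatment cannot be told apart for it.

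ATF4 itself gave intensities of 5972, 9112 and 11351 on the untreated, dexamethasone and combination arrays. After normalization it differed from untreated by 0.20 (bead SE 0.06) with dexamethasone and by 0.24 (bead SE 0.05) with the combination, both within 2-fold. Its other probe detected on all arrays differed by 0.38 and 0.07. ATF4 mRNA was therefore at a like level on the 3 arrays on the scale used here, while DDIT3 was not.

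TRIB3 encodes a pseudokinase that ATF4 and CHOP induce and that feeds back on ATF4. Its intensity was 1923 on the untreated array, 2106 after dexamethasone and 1681 with the combination. The combination array was the low one, although it was the brightest array overall. TRIB3 was 2.06-fold lower there than on the untreated array (log2 difference -1.05, bead SE 0.07) and differed by -0.79 from the dexamethasone array. This call is marginal, since 3 of 10 other processing choices put it just inside 2-fold (-0.98 at the least).

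EIF2AK4, the kinase GCN2, had intensities of 642, 558 and 629 in the same order. The treated arrays were both low after normalization. It differed from untreated by -0.77 (bead SE 0.11) after dexamethasone and by -0.98 (bead SE 0.08) with the combination, so it stayed just within 2-fold.

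The stress effectors were dim. CHAC1, which degrades glutathione, had intensities of 118, 170 and 155, and SESN2, a leucine sensor that restrains mTORC1, had 124, 183 and 145.5. Both were detected on the dexamethasone array alone. The bounds this allowed were at least 1.01-fold and at least 1.26-fold higher than untreated. Taken at their own undetected values, both would be past 2-fold, so the size of these differences is set by the treatment of dim signals. EIF4EBP1, the repressor of cap-dependent translation known as 4E-BP1, had intensities of 229, 314 and 536. The combination array was high, with differences of 0.85 (bead SE 0.17) from untreated and 0.71 (bead SE 0.15) from dexamethasone, within 2-fold.

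**Figure D3:**
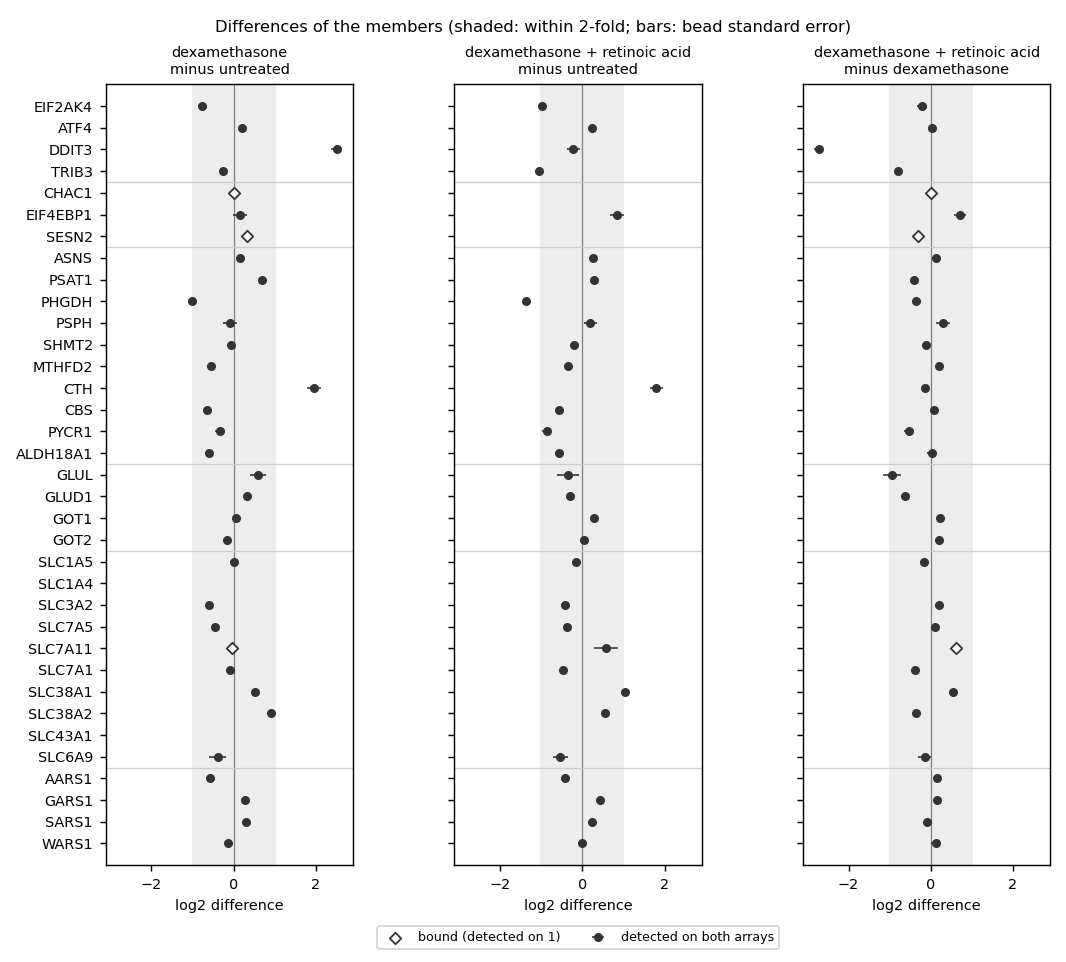
Log2 difference of each gene of the set in the 3 comparisons, with the bead standard error as bars, grey shading for differences within 2-fold and open diamonds for bounds. DDIT3 lies far to the right in the first panel, near 0 in the second and far to the left in the third, while CTH and PHGDH keep their side in both comparisons with untreated.

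The enzymes of amino acid synthesis held the only genes past 2-fold on both treated arrays, and these pointed in opposite directions. Of the 10 enzymes, 1 was higher and 1 lower than untreated in each comparison with it (medians -0.22 and -0.28), and 0 passed between the treated arrays (median -0.05, which is 0.08 with scaling to the 75th percentile). CTH encodes cystathionine gamma-lyase, which makes cysteine at the end of the transsulfuration pathway. Its brightest probe gave 159 on the untreated array, 380 after dexamethasone and 432 with the combination. The untreated array was low and the treated arrays were close to each other. CTH was 3.86-fold higher after dexamethasone (log2 difference 1.95, bead SE 0.17) and 3.48-fold higher with the combination (1.80, bead SE 0.16). The comparisons share the untreated array and so do not repeat each other.

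The 2 other CTH probes were undetected on the untreated array and detected on both treated ones. One gave at least 2.27-fold higher after dexamethasone and at least 2.09-fold higher with the combination. The remaining probe gave at least 1.19-fold and at least 1.77-fold higher. All 3 CTH probes therefore differed in the same direction, with the size depending on the probe. The signal was dim on the untreated array, and in the deposited normalized values, which kept the background, the brightest probe differed by 0.95 and 0.85, within 2-fold. CBS, the enzyme before CTH in the pathway, did not go with it. CBS gave 4492, 3618 and 5004 and differed from untreated by -0.64 (bead SE 0.04) and -0.57 (bead SE 0.05), a value that may include its near-identical copy CBSL.

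PHGDH encodes the first enzyme of serine synthesis from glycolytic 3-phosphoglycerate. Its intensity was 4672 on the untreated array, 2968 after dexamethasone and 3105 with the combination. The untreated array was the high one even before normalization. PHGDH was 2.02-fold lower after dexamethasone (log2 difference -1.01, bead SE 0.06) and 2.59-fold lower with the combination (-1.37, bead SE 0.06). The latter pair shared slide 1. Without background correction the dexamethasone value was -0.99, just within 2-fold.

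The later enzymes of serine synthesis did not share that difference. PSAT1, the aminotransferase that follows PHGDH, had intensities of 829, 1656 and 1700. The untreated array was low, and PSAT1 differed by 0.68 (bead SE 0.06) after dexamethasone and by 0.28 (bead SE 0.07) with the combination. PSPH, the phosphatase that releases serine, differed by -0.10 and 0.20, each with a bead SE of at least 0.15. The other PSPH probe, detected on all arrays, differed by -0.06 and -0.24. Of the mitochondrial folate enzymes that take up serine, SHMT2 differed by -0.07 and -0.19, and MTHFD2 by -0.56 and -0.36. All 4 lay within 2-fold.

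ASNS, asparagine synthetase, which moves the amide nitrogen of glutamine to aspartate, gave 2233, 3168 and 4462. After normalization its brightest probe differed from untreated by 0.15 (bead SE 0.07) and 0.27 (bead SE 0.05). Its other probe gave 784, 1051 and 2213 and differed by 0.03 and 0.76, so the probes disagree on the combination array. PYCR1, which makes proline, differed by -0.34 and -0.87 on its brightest probe and by -0.17 and -0.09 on the other probe detected on all arrays, and ALDH18A1, which turns glutamate toward proline, by -0.60 and -0.56, all within 2-fold.

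Of the glutamine and glutamate enzymes, 4 of 6 had a probe and 0 of those 4 passed 2-fold in any comparison (medians 0.20, -0.13 and -0.21). GLUL, glutamine synthetase, was dim on all of its probes. Its brightest, annotated to an expressed sequence tag, gave 159, 223 and 189. The dexamethasone array was high, by 0.59 (bead SE 0.19) over untreated, and the combination array lay 0.94 (bead SE 0.22) below it. A second GLUL probe, detected on the dexamethasone array alone, was at least 1.66-fold higher there. The remaining detected probe, found on all arrays, gave 170, 187 and 203 and differed from untreated by -0.36 and -0.40. The direction of GLUL is therefore not settled by these probes.

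GLUD1, which turns glutamate into 2-oxoglutarate and is nearly identical in sequence to GLUD2, gave 2411, 3782 and 3352. It differed by 0.33 after dexamethasone and by -0.29 with the combination. The cytosolic and mitochondrial aspartate aminotransferases GOT1 and GOT2 stayed between -0.17 and 0.29 against untreated.

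**Figure D4:**
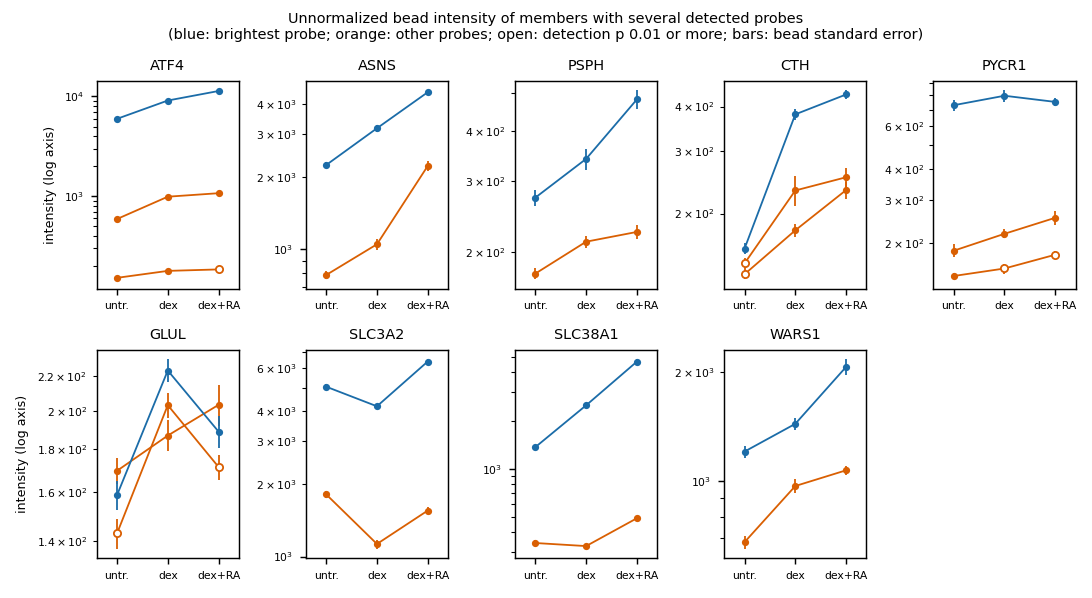
Unnormalized intensity, on a log axis, of the 9 genes of the set with several detected probes on the untreated, dexamethasone (dex) and combination (dex+RA) arrays, with bead standard errors (blue for the brightest probe, orange for others, open symbols where not detected). The CTH probes are all lowest on the untreated array, whereas the GLUL probes part between the dexamethasone and combination arrays and the SLC38A1 probes between the untreated and dexamethasone arrays.

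The amino acid transporters held 1 gene past 2-fold among 8 measured of 10, with medians of -0.07 and -0.26 against untreated. That gene passed between the combination and untreated, 12.5% against 11.3% of all genes. Between the treated arrays their median was -0.02, which is 0.02 in the deposited normalized values. SLC38A1 (SNAT1) takes up glutamine and other small neutral amino acids with sodium. Its brightest probe gave 1363 on the untreated array, 2489 after dexamethasone and 4671 with the combination. The combination array was high, 2.06-fold over untreated (log2 difference 1.04, bead SE 0.07). The dexamethasone array lay between them, 0.51 over untreated and 0.54 under the combination. The other SLC38A1 probe, annotated to the same transcript, gave 343, 328 and 490. It differed from untreated by -0.70 after dexamethasone and by -0.28 with the combination. The probes thus go in opposite directions against untreated, and both place the combination above dexamethasone.

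SLC38A2 (SNAT2), a transporter that cells adapt to amino acid supply, gave 987, 2289 and 2433. The untreated array was low, and SLC38A2 differed by 0.91 (bead SE 0.08) and 0.56 (bead SE 0.07), within 2-fold. SLC1A5 (ASCT2), the main glutamine importer of many tumour cells, gave 946.5, 1228 and 1469. Once normalized it differed from untreated by 0.00 (bead SE 0.08) and -0.16 (bead SE 0.08).

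SLC7A5 and SLC3A2 encode the light and heavy chains of LAT1, which exchanges intracellular glutamine for leucine and other large neutral amino acids. SLC7A5 gave 16444, 13688 and 15627, high on the untreated array, and differed by -0.46 (bead SE 0.04) and -0.36 (bead SE 0.06). The brightest SLC3A2 probe gave 5044, 4185 and 6412 and differed by -0.61 (bead SE 0.05) and -0.41 (bead SE 0.04). The other SLC3A2 probe gave 1809, 1128 and 1550, lower by 2.22-fold after dexamethasone and by 2.12-fold with the combination. Both chains and both SLC3A2 probes were thus on the low side of untreated, with a 2-fold difference on 1 probe alone.

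Cystine enters through SLC7A11 (xCT), which gave 147, 157 and 215 and was undetected on the dexamethasone array. It differed by 0.57 (bead SE 0.29) between the combination and untreated. The cationic amino acid transporter SLC7A1 differed from untreated by -0.09 and -0.47, and the glycine transporter SLC6A9 by -0.39 and -0.53.

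The 4 aminoacyl-tRNA synthetases were all within 2-fold in the 3 comparisons (medians 0.07, 0.11 and 0.14, the first being -0.06 with scaling to the 75th percentile). AARS1, which charges tRNA with alanine, gave 5334, 4539 and 6658 and differed from untreated by -0.57 (bead SE 0.06) and -0.42 (bead SE 0.05). GARS1, for glycine, gave 3046, 4566 and 6713 and differed by 0.27 (bead SE 0.08) and 0.43 (bead SE 0.07). SARS1, for serine, differed by 0.31 and 0.23, and WARS1, for tryptophan, by -0.13 and -0.01. The other WARS1 probe, detected on all arrays, differed by 0.11 and -0.17. AARS1 was low and GARS1 and SARS1 high on the treated arrays, so the synthetases did not share a direction.

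Set by promoter, 9 of the 10 genes that hold the core were measured between dexamethasone and untreated, with 0 past 2-fold and differences from -0.61 to 0.51. Between the combination and untreated 1 of 8 passed, SLC38A1. Of the 21 genes with a window and no core, which include GLS2, 3 of 19 and 3 of 18 measured passed. DDIT3 is one of the genes with no core. With 10.3% and 11.3% of all genes past 2-fold, these counts are near the background and nothing is read from the split.

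Genes around the set were read from 7 further lists of 134 genes, 121 of them with a named probe. The lists were chosen with earlier results of these data known, so no response of a list is read from its share past 2-fold. Of 13 other genes known as ATF4 targets, 5 were higher and 1 lower after dexamethasone than untreated (median log2 difference 0.34, against 0.00 over all genes). That is 46.2% of the 13, against 10.3% of all measured genes (5.73% higher and 4.57% lower). The count of higher genes was 4 with scaling to the 75th percentile, without background correction and in the deposited normalized values. ATF3, a stress-induced transcription factor, gave 146, 447 and 226 and was at least 6.81-fold higher after dexamethasone. This rests on 1 probe, as the other ATF3 probes were undetected on all arrays. PPP1R15A (GADD34), which lets eIF2 be dephosphorylated, gave 691, 2765 and 1281 and was 3.31-fold higher. NUPR1, a stress-response chromatin protein, gave 168, 480 and 284 and was 4.49-fold higher. DDIT4 (REDD1), an mTORC1 inhibitor that glucocorticoids induce directly, gave 2184, 15932 and 14048 and was 5.27-fold higher.

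ATF3, PPP1R15A and NUPR1 had their highest value on the dexamethasone array, as DDIT3 did, and DDIT4 was high on both treated arrays. Between the combination and dexamethasone, 2 of the 13 were higher and 4 lower, 46.2% against 6.57% of all genes (median -0.12, which is 0.03 with scaling to the 75th percentile). Without background correction and in the deposited normalized values these counts were 1 and 2. ATF3 was 4.07-fold lower, PPP1R15A 3.10-fold and NUPR1 2.93-fold. GDF15, a stress cytokine, gave 199, 197 and 970 and was 8.64-fold higher with the combination. Between the combination and untreated, 3 were higher and 1 lower, 30.8% against 11.3% of all genes (median 0.02). In the deposited normalized values 2 were higher. GDF15 was 5.02-fold higher, the lipoprotein receptor VLDLR 4.46-fold and DDIT4 4.29-fold, and the transcription factor ATF5 was 2.90-fold lower. What the dexamethasone array shows alone cannot be told apart from its slide.

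The genes that sense amino acids for mTORC1 had 3 of 21 measured higher and 0 lower after dexamethasone (median 0.25), 14.3% against 10.3% of all genes, a share near it. That count was 2 without background correction and in the deposited normalized values, and 4 with scaling to probes detected on all arrays. CASTOR1, an arginine sensor, gave 209, 1479 and 676 and was 9.90-fold higher after dexamethasone and 2.93-fold higher with the combination. RRAGB, a Rag GTPase, was 2.68-fold and 2.07-fold higher, against 1.70-fold and 1.44-fold on its other detected probe. MIOS, a GATOR2 subunit, was 2.67-fold higher after dexamethasone and within 2-fold with the combination. With the combination 2 of 21 were higher than untreated and 0 lower, 9.5% against 11.3% of all genes (median 0.13, and -0.004 with scaling to probes detected on all arrays). The count of higher genes was 4 under either 75th percentile scaling, 1 without background correction and 0 in the deposited normalized values. CASTOR1 was also the 1 gene of 21 lower with the combination than after dexamethasone, by 3.38-fold.

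Of 12 other amino acid transporters measured after dexamethasone, 3 were higher and 2 lower than untreated (median 0.34), among 23 with a probe. That is 41.7% of the 12, against 10.3% of all genes. SLC7A8 (LAT2), a close relative of LAT1, gave 157, 837 and 265 and was 11.4-fold higher. SLC6A6, the taurine transporter, gave 180, 554 and 287 and was 4.47-fold higher. SLC25A22, a mitochondrial glutamate carrier, was 2.74-fold lower, and SLC36A4 at least 2.19-fold lower. With the combination, 2 of 13 were higher than untreated and 1 lower, 23.1% against 11.3% of all genes (median 0.17). SLC25A12, a mitochondrial aspartate-glutamate carrier, was 2.48-fold higher, the cationic transporter SLC7A2 2.22-fold higher and SLC25A22 2.51-fold lower. SLC7A8 and SLC6A6 were 6.64-fold and 3.47-fold lower with the combination than after dexamethasone, and SLC36A4 was at least 2.16-fold higher (1 of 13 higher, 2 lower, 23.1% against 6.57% of all genes, median -0.01, which is 0.05 with scaling to the 75th percentile). Without background correction and in the deposited normalized values, 1 fewer transporter was lower after dexamethasone, 1 fewer was higher with the combination than untreated, and 0 were higher with the combination than after dexamethasone, as also with scaling to probes detected on all arrays.

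Other users of glutamine and glutamate had 2 of 21 measured higher and 0 lower after dexamethasone (median 0.03, which is -0.02 with scaling to the 75th percentile), 9.5% against 10.3% of all genes, a share near it. PRODH, which starts proline breakdown, gave 150, 287 and 133 and was 3.09-fold higher. BCAT1, a branched-chain aminotransferase, was 2.03-fold higher. With the combination 0 of 21 passed 2-fold against untreated, where 11.3% of all genes did. Against dexamethasone 0 were higher and 2 lower, 9.5% against 6.57% of all genes (3.58% lower). These were PRODH, by at least 3.33-fold, and ALDH4A1, the next enzyme of proline breakdown, by 2.28-fold. Both genes were thus highest on the dexamethasone array. Without background correction and in the deposited normalized values, 0 of the 21 passed 2-fold in any comparison.

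The remaining lists were quieter. Of 14 other cytosolic aminoacyl-tRNA synthetases and of 12 genes of eIF2 kinases and eIF2B, 0 passed 2-fold in any comparison in which they were measured. The synthetases ranged from -0.53 to 0.39 after dexamethasone and from -0.73 to 0.55 with the combination. Of 9 other serine, glycine and folate genes, 0 passed after dexamethasone, with a median of -0.43. SHMT1, the cytosolic serine hydroxymethyltransferase, was 2.01-fold lower with the combination than untreated, and its other probes differed by -0.88 and 0.33. This call, the 1 lower gene of its list, was lost under both 75th percentile scalings, without background correction and in the deposited normalized values. SFXN1, a mitochondrial serine carrier, was 2.16-fold higher with the combination than after dexamethasone, a call lost without background correction and in the deposited normalized values.

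**Figure D5:**
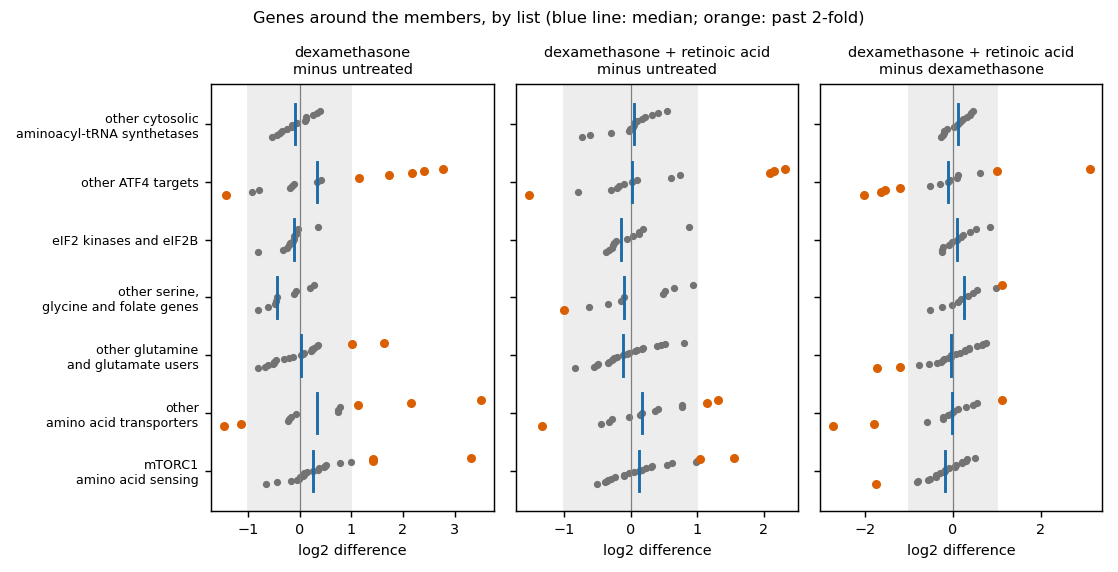
Log2 difference of the measured genes of the 7 further lists in the 3 comparisons (each dot a gene, orange where past 2-fold, blue line the list's median, grey shading within 2-fold). Other ATF4 targets and other amino acid transporters have dots past 2-fold on both sides in every comparison, and the synthetases and the eIF2 genes stay inside the shading.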

How the data were processed

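Total RNA was extracted with Trizol and cleaned on columns, and biotinylated cRNA was measured on Illumina bead arrays, per the labels' protocols. The deposited intensity is the mean over beads per probe, with its bead standard error in intensity units and the number (count) of beads, per the file headers. Differing array medians and no negative values point to neither scaling between arrays nor background subtraction. A detection p-value per probe and array is also deposited, per the file headers, and was taken to rank the probe among negative controls. A second deposited table holds intensity values with medians of 137.4, 137.5 and 137.5 and ranks equal to the bead intensities (Spearman correlation 1), which points to quantile normalization without background subtraction, inferred from the values. In the sources used here the software behind both tables is not given.

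The log2 levels come from R 4.3.3 with limma 3.58.1: normexp correction with negative controls inferred from the detection p-values, an offset of 16, quantile normalization and log2. Later steps used Python 3.11.15 (numpy 2.4.6, pandas 2.3.3, matplotlib 3.10.9). Slides were read from the array names in the column headers. The number of arrays limits the precision. Annotation, which can be old, named 30109 probes with 1 symbol and 8 with several, leaving 17198 without a name. RefSeq (GRCh38.p14) held the gene identifier of 30070 probes, with 0 symbols updated. Measured genes are those whose brightest probe had a detection p-value under 0.01 on either array compared. A bound that put the undetected array on top counted as a difference of 0. The steps were tested on simulated arrays with changes set only in bright genes, so changes in dim probes were not tested.

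Every gene of the set is named, and from each further list up to 4 genes past 2-fold per comparison, largest first. The set and lists were chosen with earlier results of these data known. Alternatives numbered 10, of which 9 were planned and scaling to probes detected on all arrays was chosen after seeing the data.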

Additional observations from a re-analysis of the deposited data

How the results depend on the processing

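No paired analysis was possible because each group has 1 array and the labels carry no replicate numbers. With 1 array a group, no array could be left out either. DDIT3 passed 2-fold under all 10 alternatives in both comparisons where it was called, with log2 differences from 1.63 to 2.51 over untreated and from -2.83 to -1.72 for the combination against dexamethasone. PHGDH with the combination passed under all 10 (-1.43 to -1.33), and after dexamethasone under 9 of 10 (-1.17 to -0.99). CTH passed under 9 of 10 after dexamethasone (lowest 0.95) and under 8 of 10 with the combination (lowest 0.85). TRIB3 passed under 7 of 10 (-1.05 to -0.98) and SLC38A1 under 8 of 10, with 0.38 by the median over its detected probes. No called difference of the set changed sign under these alternatives.

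The counts of the set are small and move with the filter. After dexamethasone, the genes higher than untreated numbered 1 with the deposited normalized values and 4 either without the detection filter and bound or with the undetected side at its own value, where CHAC1 and SESN2 joined. The genes lower numbered 0 without background correction. For the combination against untreated, without background correction 0 were higher and 1 lower, with the deposited values 1 and 1, by the median over probes 1 was higher, and with scaling to the 75th percentile 1 was lower. For the combination against dexamethasone, 2 were lower under either 75th percentile scaling (DDIT3 and GLUL) and under both settings without the bound (DDIT3 and SESN2). The median for the combination against untreated moved to -0.10 with the deposited values, -0.081 without the detection filter and bound, and -0.28 with scaling to probes detected on all arrays, and that for the combination against dexamethasone to -0.15 under the last. This scaling shifted the median of all 10734 genes in that comparison to -0.10 and the share of calls that were higher from 45.5% to 31.2%. Dim probes near background limit what can be said of CHAC1, SESN2, SLC7A11 and GLUL. Other probes of the set detected on both arrays shared the sign of the brightest probe in 5 of 9 cases between dexamethasone and untreated. The counts were 6 of 8 for the combination against untreated and 5 of 10 for the combination against dexamethasone.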
